A study of Homo sapiens with 8 samples.

Results

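The Hippo pathway genes described here are 10 of the 58051 genes counted in 8 RNA sequencing libraries of A375, an established human melanoma cell line. They were chosen by name as YAP, TAZ and TEAD genes and direct targets of these factors, comprising the coactivator genes *YAP1* and *WWTR1* (which encodes TAZ), the DNA-binding partners *TEAD1* and *TEAD4*, and the target genes *CCN1*, *CCN2*, *ANKRD1*, *AMOTL2*, *AJUBA* and *LATS2*. All 10 were found by symbol in every library, and all 10 passed the filter on low counts that left 17671 genes to test. Wild-type cells of 4 lines named WT1, WT2, WT3 and WT4 had spent 12 h either with 10% fetal bovine serum (FBS) in the medium or with no FBS, and each line gave a library of both kinds, for 4 serum and 4 serum-free libraries. Each line grew from a single cloned cell and gave 1 library per condition, so the spread between replicates is the spread between lines, and a difference between lines in the response to serum could not be tested. In these bulk libraries, fewer cells of a type and less RNA per cell cannot be told apart.

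In the Hippo pathway, a kinase cascade ending in LATS1 and LATS2 phosphorylates YAP and TAZ and keeps them out of the nucleus. Unphosphorylated YAP and TAZ enter the nucleus, bind TEAD transcription factors and activate genes for secreted matrix-associated proteins such as CCN1 and CCN2, together with genes such as *LATS2* and *AMOTL2* whose products restrain YAP and TAZ in turn. Serum lipids acting through G-protein-coupled receptors, cell density and actin tension are textbook inputs to this pathway. RNA levels do not measure the phosphorylation or location of YAP and TAZ, which were not analysed here.

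Each library held between 29759279 and 73341551 counts on genes. Reads aligned to more than 1 place made up 22.7% of the serum library of WT1 and 16.8% of that of WT2, against 5.73% to 10.1% of the others. Without these 2 libraries, 3.88% of all tested genes were called lower and 2.00% higher between conditions. That fit compares WT3 and WT4 with serum to all the lines without it, so differences between lines enter its estimates. The deposited counts labelled WT4 are named differently from those of the other lines, and only the labels identify them as WT4. Of the 9 melanocyte lineage markers examined, *MITF* averaged 40.2 CPM (counts scaled to library size by TMM) with serum and 33.1 CPM without it (called lower, adjusted p = 0.0496), while *SOX10* was at 0 in all libraries and *TYR*, *TYRP1*, *PMEL* and *MLANA* averaged no more than 1.01 CPM in either condition. The other 3 markers were *S100B* at 18.9 and 23.1 CPM, *S100A1* at 3.02 and 5.41 CPM (called higher without serum, adjusted p = 0.00605) and *DCT* at 1.23 and 0.636 CPM. With the line as a block, *S100B* was also called higher (adjusted p = 0.0469) and *DCT* lower (adjusted p = 0.0251). Both calls were lost when a correction for the GC content of transcripts was added (0.178 and 0.0592). The exons of *SOX10* overlap those of *POLR2F* on the other strand over 5.39% of their length. The summed level of 5 keratinocyte and epithelial markers was 54.0 to 65.2 CPM with serum and 43.5 to 56.4 CPM without it, mostly *KRT10*, which was called lower (adjusted p = 0.0253), and *KRT14*. The endothelial markers found summed to at most 1.87 CPM and the leukocyte markers to at most 7.54 CPM.

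TEAD proteins recognize the letters GGAATG, read on either strand, and the stretches before the start sites of *CCN2*, *ANKRD1* and *AMOTL2* are shown in full as examples of target genes that hold these letters and differed in level between lines. They are RefSeq sequences of the GRCh38.p14 build, each 250 bases long and ending 1 base before the annotated start, printed 5′ to 3′ on the strand of the gene, with every GGAATG or its complement CATTCC in capitals. *CCN2* lies at chr6:131951373-131951622 (minus strand), *ANKRD1* at chr10:90921088-90921337 (minus strand), and the second of the annotated *AMOTL2* starts at chr3:134374448-134374697 (minus strand).
CCN2: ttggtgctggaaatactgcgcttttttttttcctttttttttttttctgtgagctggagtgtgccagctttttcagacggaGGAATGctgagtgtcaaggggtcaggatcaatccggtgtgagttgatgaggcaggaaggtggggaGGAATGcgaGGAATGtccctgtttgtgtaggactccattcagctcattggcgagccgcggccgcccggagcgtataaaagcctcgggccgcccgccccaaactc
ANKRD1: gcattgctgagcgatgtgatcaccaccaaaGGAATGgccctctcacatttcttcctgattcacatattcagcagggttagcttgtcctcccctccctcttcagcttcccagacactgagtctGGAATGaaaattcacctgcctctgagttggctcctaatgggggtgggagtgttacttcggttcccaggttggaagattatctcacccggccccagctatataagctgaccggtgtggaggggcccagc
AMOTL2: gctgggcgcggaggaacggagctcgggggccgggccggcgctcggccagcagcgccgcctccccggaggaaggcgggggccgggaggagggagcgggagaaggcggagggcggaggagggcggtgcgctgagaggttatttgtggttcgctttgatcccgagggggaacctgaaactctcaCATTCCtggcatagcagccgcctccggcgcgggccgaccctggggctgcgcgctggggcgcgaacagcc

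*CCN2* held 3 copies of GGAATG, beginning 169, 104 and 95 bases before its start, and *ANKRD1* held 2, beginning 220 and 128 bases before its start. In *AMOTL2*, the complement CATTCC began 69 bases before the second start, and the first start had no match. Over 35116 windows of 300 bases (250 before to 50 after each annotated start), 14% held the motif at least once on either strand, 1.37% held at least 2 copies and 0.128% at least 3. The *ANKRD1* window also held TGATTCA, 195 bases before its start and sharing no base with the capitals. It matches TGANTCA, the AP-1 motif written with any base in the middle (read on both strands). Matches to this broad form were present in 7.71% of all windows. Another 3 genes held a single GGAATG, shown with 12 bases on each side. The site of *YAP1* is at chr11:102110273-102110302 (plus strand), 162 bases before the start, that of *LATS2* at chr13:21061560-21061589 (minus strand), 10 bases into the transcript, and that of *AJUBA* at chr14:22976884-22976913 (minus strand), 59 bases before its second annotated start.
YAP1: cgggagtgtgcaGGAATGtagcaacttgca
LATS2: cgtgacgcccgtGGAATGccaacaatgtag
AJUBA: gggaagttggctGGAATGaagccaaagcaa

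The windows at both *WWTR1* starts and at the first *AJUBA* start held no GGAATG on either strand. The CArG box, the motif of serum response factor, was found in 1.29% of all windows and in none of those of the genes above. *CCN1*, *TEAD1* and *TEAD4* were not searched. A match describes the letters in these windows, and binding was not measured.

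Per length, *WWTR1* was the most abundant of the 10 transcripts in both conditions. With serum, it reached 80.1 ± 5.24 RPKM (reads scaled to merged exon length and library size, SD over n = 4 lines), rank 475 of 17425 genes with a length. *AMOTL2* followed at 41.1 ± 7.45 RPKM, *CCN1* at 37.6 ± 13.2 RPKM and *CCN2* at 35.8 ± 10.1 RPKM, and the ranges of these 3 genes overlapped one another but not that of *WWTR1*. *YAP1* at 27.5 ± 2.18 RPKM and *TEAD4* at 25.2 ± 2.31 RPKM overlapped each other, as did *TEAD1* at 19.5 ± 1.66 RPKM and *AJUBA* at 18.6 ± 4.45 RPKM. *LATS2*, at 12.5 ± 1.77 RPKM, overlapped *AJUBA*, while *ANKRD1*, at 3.57 ± 3.09 RPKM, did not overlap its neighbor *LATS2*. The order is a description of levels. With the length of the longest transcript in place of merged exons, *TEAD4* (33.5 RPKM) moved above *YAP1* (32.1 RPKM) and *AJUBA* (26.3 RPKM) above *TEAD1* (22.2 RPKM).

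Without serum, *WWTR1* remained highest at 84.8 ± 5.68 RPKM and *ANKRD1* lowest at 2.81 ± 2.93 RPKM. *CCN1* went from the third to the fifth position, at 19.9 ± 9.74 RPKM, below *CCN2* at 31.4 ± 13.98 RPKM and *YAP1* at 28.6 ± 2.54 RPKM. The ranges of *CCN1* and *CCN2* overlapped in both conditions, so this change of order is a description of the means. The ratio of *WWTR1* to *YAP1*, taken within each library on the RPKM scale, averaged 2.92 ± 0.271 with serum and 2.98 ± 0.226 without it (n = 4 lines each).

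**Figure D1:**
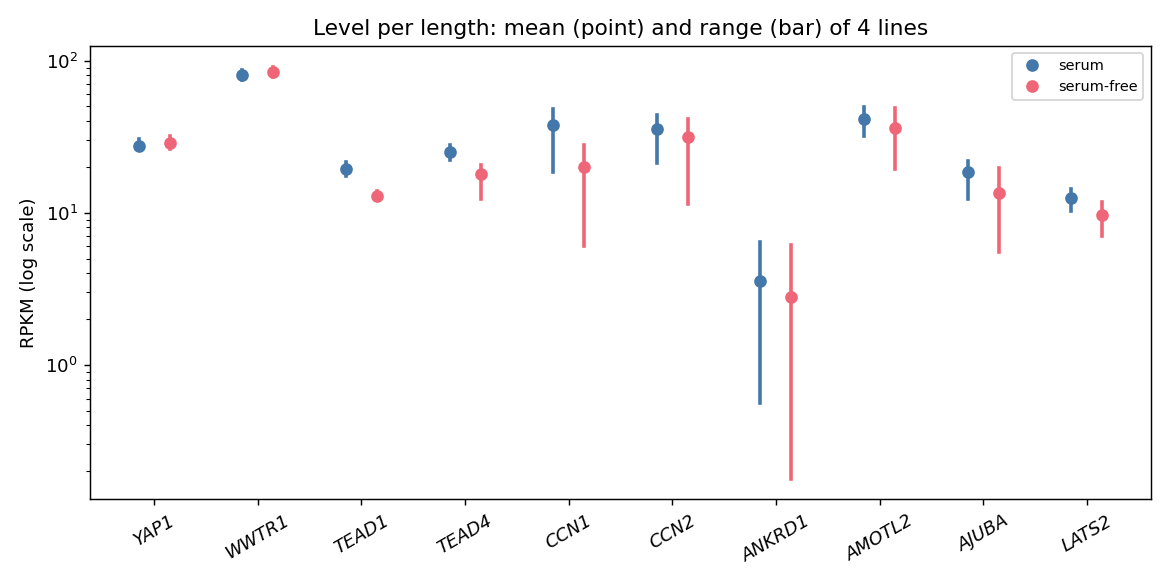
Level per length of the 10 genes (RPKM, logarithmic axis) with serum (blue) and without serum (red). Points are means and bars the lowest to highest of 4 lines: *WWTR1* stands above the other 9 genes in both conditions, and *ANKRD1* spans the widest range.

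The coactivator genes did not pass the test between conditions. Gene positions here and below are those of RefSeq on GRCh38.p14, and all 10 genes are protein coding. *YAP1* (ENSG00000137693, chr11:102110447-102233424, plus strand) measured 172, 162, 193 and 166 CPM with serum and 173, 165, 182 and 202 CPM without serum in WT1 to WT4. The groups overlapped, and only the serum-free library of WT4 lay above all the serum libraries. Its log2 fold change, serum-free over serum, was 0.06 (SE 0.08, 95% interval −0.13 to 0.25, adjusted p = 0.643). This and every other adjusted p between conditions came from the quasi-likelihood test of edgeR, adjusted over all tested genes by the Benjamini-Hochberg method. Without both libraries of WT4 it was −0.01, and −0.0018 without the serum libraries of WT1 and WT2. *WWTR1* (ENSG00000018408, chr3:149517235-149724788, minus strand) measured 728, 624, 654 and 670 CPM with serum and 725, 689, 654 and 764 CPM without serum. WT1 and WT3 were nearly level between conditions and WT2 and WT4 were higher without serum, for a log2 fold change of 0.09 (SE 0.07, interval −0.08 to 0.25, adjusted p = 0.425). With the line as a block in the fit, neither passed (adjusted p = 0.459 for *YAP1* and 0.192 for *WWTR1*). When the block was combined with a correction for the GC content of transcripts, both were called higher, as were 21.7% of all tested genes, *YAP1* by 0.12 (adjusted p = 0.0371) and *WWTR1* by 0.18 (adjusted p = 0.00267) on the log2 scale. Exons on the opposite strand cover 9.95% of the exons of *YAP1* and, in *WWTR1-AS1*, 9.05% of those of *WWTR1*, and the strand setting of the counts is not given in the sources used here.

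*TEAD1* and *TEAD4* fell without serum, and they were the only 2 of the 10 genes to pass the test in the fit without the block. Across all tested genes, 14.0% were called lower and 11.1% higher in this fit. *TEAD1* (ENSG00000187079, chr11:12674421-12944737) went from 229, 208, 212 and 186 CPM with serum to 138, 134, 132 and 149 CPM without it in WT1 to WT4. Every serum-free library was below every serum library, and WT4 had both the lowest serum and the highest serum-free value. *TEAD1* fell by 0.59 on the log2 scale (SE 0.08, adjusted p = 0.00148, lower in 4 of 4 lines), with ratios within lines of −0.73, −0.64, −0.68 and −0.32. The call held in every alternative fit, with estimates from −0.67 (WT4 left out) to −0.52 (GC correction with the block).

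*TEAD4* (ENSG00000197905, chr12:2959397-3040676) went from 56.8, 63.4, 58.5 and 50.6 CPM to 43.5, 47.1, 44.2 and 28.1 CPM. The groups again did not overlap, and here WT4 was lowest in both conditions. *TEAD4* fell by 0.49 on the log2 scale (SE 0.15, adjusted p = 0.038, lower in 4 of 4 lines), with ratios within lines of −0.38, −0.43, −0.40 and −0.85. This call was close to the threshold and was lost under upper-quartile scaling (adjusted p = 0.0619), without the serum libraries of WT1 and WT2 (0.225), and without either library of WT1, either library of WT3 or the serum library of WT2 (0.0557 to 0.0933). It was also lost without both libraries of WT1 (0.13), WT2 (0.084) or WT3 (0.117), but not of WT4 (0.00202). With the line as a block, both TEAD genes were called lower (adjusted p = 6.17e-06 for *TEAD1* and 1.11e-04 for *TEAD4*). The ratio of *TEAD1* to *TEAD4* on the RPKM scale was 0.859, 0.697, 0.772 and 0.783 with serum and 0.674, 0.603, 0.637 and 1.13 without serum, lower in 3 lines and higher in WT4.

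**Figure D2:**
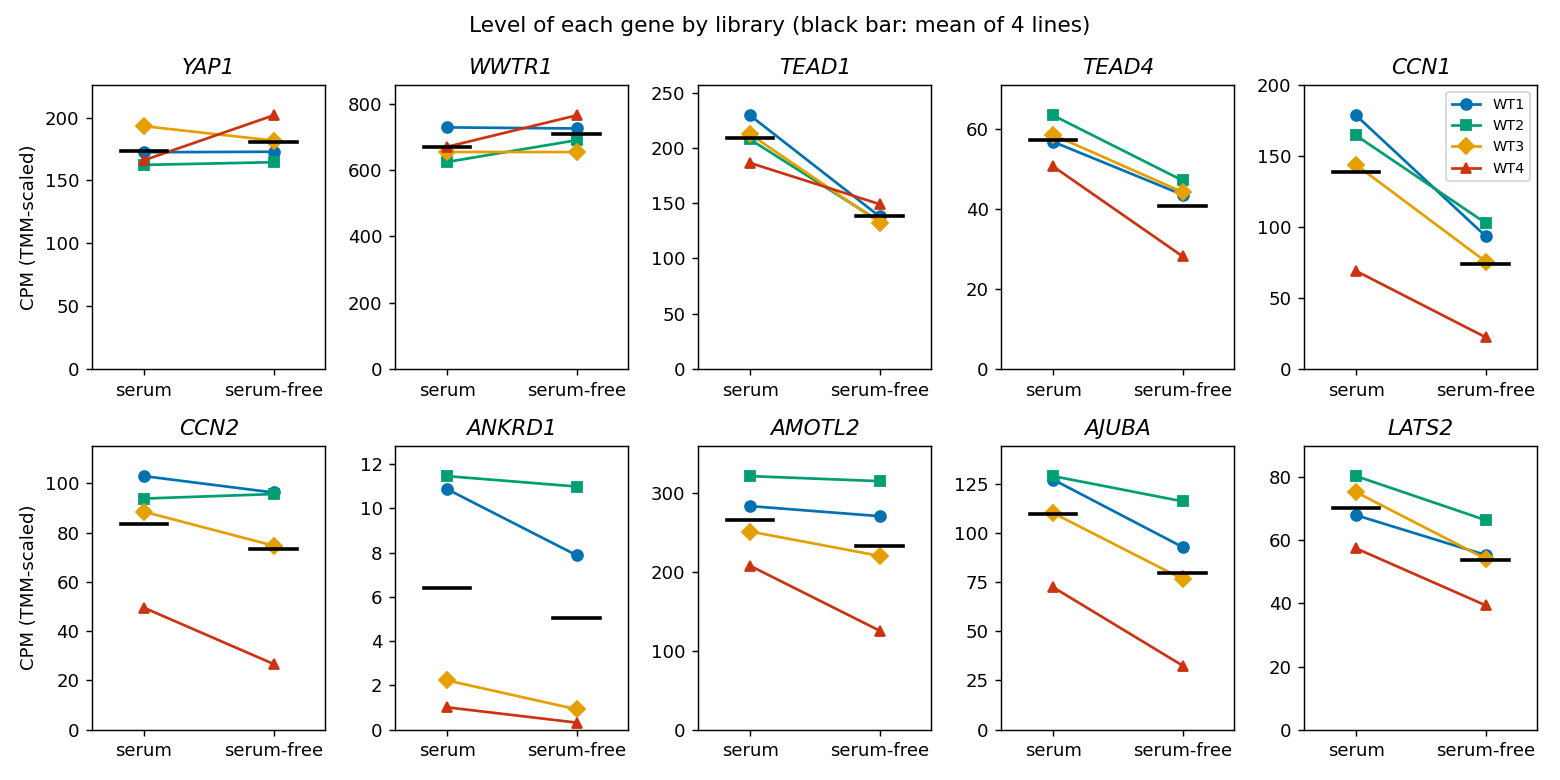
Level of each gene (CPM, linear axis from 0) with and without serum, with a line joining the libraries of each A375 line and a black bar at the mean of 4 lines. *TEAD1* and *TEAD4* separate the conditions, whereas *CCN1*, *CCN2*, *AMOTL2*, *AJUBA* and *LATS2* show WT4 below the other lines in both conditions.

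Among the targets with secreted or nuclear products, *CCN1* had the largest difference. *CCN1* (ENSG00000142871, chr1:85580761-85583950) encodes a matrix-associated protein that binds integrins, and it went from 179, 165, 144 and 69.1 CPM with serum to 93.6, 103, 75.7 and 22.3 CPM without serum. The groups overlapped because the serum library of WT4 was below 3 of the serum-free libraries, while each line on its own was lower without serum. The ratios within lines were −0.93, −0.68, −0.93 and −1.63 on the log2 scale. The fit without a block gave −0.91 (SE 0.48, interval −2.03 to 0.21, adjusted p = 0.209), and the fit with the line as a block gave −1.02 (SE 0.16, interval −1.41 to −0.63, adjusted p = 0.00281). Leaving out both libraries of WT4 brought *CCN1* past the threshold without a block as well (−0.83, adjusted p = 0.00318). Without the serum libraries of WT1 and WT2, the unblocked estimate was −0.54 (adjusted p = 0.659), and without the serum-free library of WT4 it was −0.60.

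*CCN2* (ENSG00000118523, chr6:131948176-131951372, minus strand), which encodes the related connective tissue growth factor, measured 103, 93.8, 88.5 and 49.5 CPM with serum and 96.3, 95.6, 74.7 and 26.7 CPM without serum. WT1 and WT2 were nearly level and WT4 was the lowest in both conditions, with a ratio of −0.89 against −0.24 to 0.03 in the other lines. The log2 fold change was −0.18 (SE 0.40, interval −1.12 to 0.75, adjusted p = 0.778), and −0.28 with the line as a block (interval −0.64 to 0.07, adjusted p = 0.172). The direction without the block turned when the serum-free library of WT4 was left out (0.10) and when the serum libraries of WT1 and WT2 were left out (0.08). Exons of *LINC01013* on the opposite strand cover 11.9% of those of *CCN2*.

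*CCN1* was thus set against *CCN2* within each library, on the RPKM scale. The ratio was 1.10, 1.11, 1.03 and 0.882 with serum and 0.615, 0.680, 0.641 and 0.530 without serum in WT1 to WT4. It was lower without serum in all 4 lines and the groups did not overlap, although the lines themselves differed in the level of both genes. The log2 change of the ratio averaged −0.74 with an SD of 0.068 over lines, smaller than the SD of the log2 change of *CCN1* (0.408) or of *CCN2* (0.409) alone. An exact two-sided permutation test gave p = 0.0286, the smallest that 4 against 4 libraries allow, and 0.114 after adjustment over the 4 pairs of genes compared. The other pairs had unadjusted p of 0.8286 for *WWTR1* to *YAP1*, 0.8 for *TEAD1* to *TEAD4* and 0.371 for *AMOTL2* to *LATS2*. Paired by line, the smallest p possible is 0.125, which this ratio reached.

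*ANKRD1* (ENSG00000148677, chr10:90912096-90921087, minus strand), which encodes an ankyrin repeat protein first known from muscle, had the lowest counts, from 18 to 838 per library. It measured 10.9, 11.5, 2.23 and 1.01 CPM with serum and 7.88, 10.98, 0.920 and 0.319 CPM without serum. WT1 and WT2 were above WT3 and WT4 in either condition, and each line was lower without serum, with log2 ratios of −0.46, −0.06, −1.24 and −1.54. The fit without a block gave −0.34 (SE 1.13, adjusted p = 0.861), and the fit with the line as a block gave −0.56 (SE 0.20, adjusted p = 0.0313). The blocked call was lost with the GC correction (adjusted p = 0.128), without WT1 (0.065) and without WT3 (0.152). Without the serum libraries of WT1 and WT2, the estimate without a block was 1.62 (adjusted p = 0.562), and without the serum library of WT1 or of WT2 or the serum-free library of WT4 it was 0.04 to 0.09. The estimate of 1.62 compares serum WT3 and WT4 with all the serum-free lines, so the difference between lines enters it.

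The remaining targets encode proteins that act back on the pathway. AMOTL2 is an angiomotin that binds and sequesters YAP at junctions. *AMOTL2* (ENSG00000114019, chr3:134355345-134375417, minus strand) measured 283, 321, 251 and 208 CPM with serum and 271, 315, 220 and 126 CPM without serum. The groups overlapped, WT4 was lowest in both, and the ratio of WT4 (−0.73) was below those of the other lines (−0.19 to −0.03). The log2 fold change was −0.18 (SE 0.27, adjusted p = 0.656), and −0.24 with the block (adjusted p = 0.0995). With the block and the GC correction it was −0.39 (adjusted p = 0.0214), and with the block but without WT2 it was −0.33 (adjusted p = 0.0267). Leaving out the serum-free library of WT4 brought the unblocked estimate to 0.02, and leaving out the serum libraries of WT1 and WT2 brought it to 0.01.

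AJUBA is a LIM protein that binds and inhibits LATS kinases. *AJUBA* (ENSG00000129474, chr14:22971177-22982551, minus strand) measured 127, 129, 110 and 72.4 CPM with serum and 92.8, 116, 76.6 and 32.6 CPM without serum. Each line was lower without serum, WT4 most, yet the groups overlapped. The log2 fold change was −0.46 (SE 0.37, adjusted p = 0.404), and −0.55 with the block (SE 0.17, adjusted p = 0.0404). That call was lost without WT1 (0.0664), without WT3 (0.0576) and with the GC correction (0.0735). The estimate without a block was −0.19 without the serum-free library of WT4 and −0.21 without the serum libraries of WT1 and WT2.

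LATS2 is the kinase that phosphorylates YAP and TAZ. *LATS2* (ENSG00000150457, chr13:20973036-21061586, minus strand) measured 68.0, 80.4, 75.3 and 57.5 CPM with serum and 55.4, 66.4, 54.2 and 39.4 CPM without serum. It was lower without serum in every line although the groups overlapped, with log2 ratios of −0.30, −0.27, −0.47 and −0.54. The log2 fold change was −0.38 (SE 0.15, adjusted p = 0.101), and −0.39 with the block (SE 0.06, adjusted p = 2.02e-04). Without the block it passed when both libraries of WT4 (adjusted p = 0.0221) or the serum-free library of WT2 (0.044) were left out. The unblocked estimate was −0.25 without the serum-free library of WT4 (adjusted p = 0.161) and −0.31 without the serum libraries of WT1 and WT2 (0.386). With the block it passed whichever line was left out, with adjusted p of at most 0.00555.

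With the line as a block, 6 of the 10 genes were thus called lower and 0 higher, the 6 being *TEAD1*, *TEAD4*, *CCN1*, *ANKRD1*, *AJUBA* and *LATS2*. In that fit, 22.4% of all tested genes were called lower and 23.2% higher. The fit without the block also called 0 of the 10 genes higher, and none had an unadjusted p below 0.05 in that direction; DESeq2 and voom called 0 higher too. The median log2 fold change of the 10 genes was −0.36 without and −0.45 with the block, against 0.03 and 0.04 for all tested genes. Leaving out WT2 brought the count called lower under the block to 8, which added *CCN2* (adjusted p = 0.0303) and *AMOTL2*, and leaving out WT1 or WT3 brought it to 4. The share of all tested genes called lower was 18.8% without WT2, 17.0% without WT1 and 17.8% without WT3. Without WT4 the count was again 6, where 25.1% of all tested genes were called lower. The members share libraries and are not independent of one another.

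**Figure D3:**
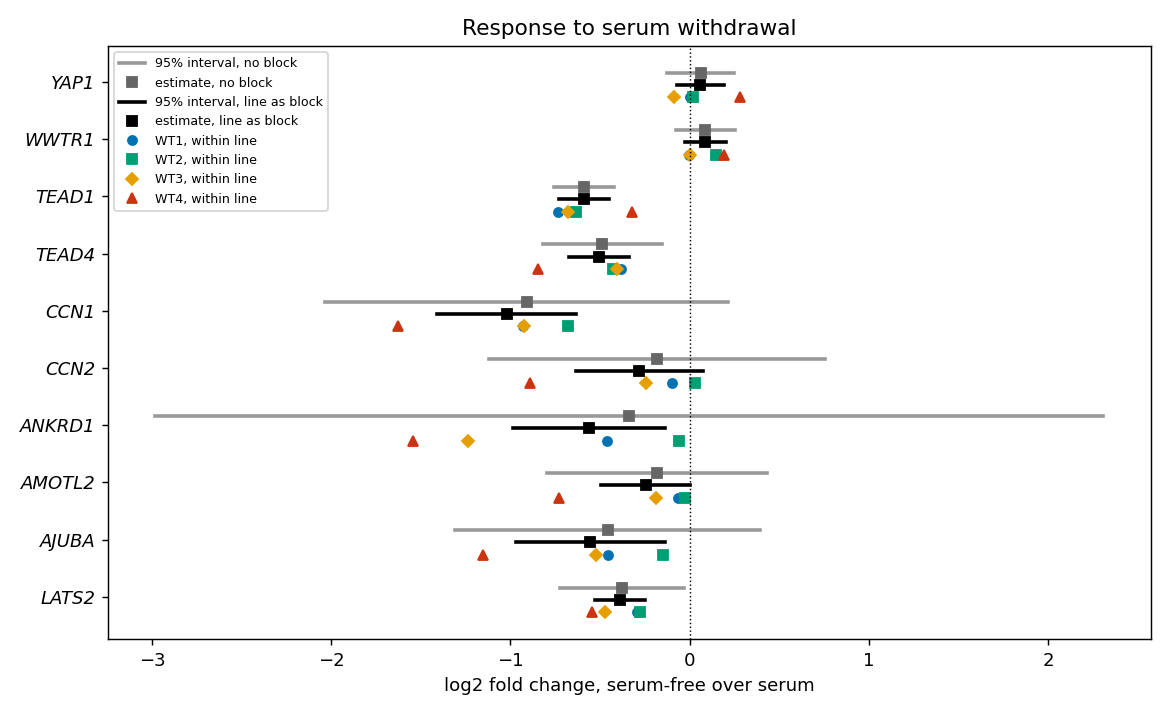
Log2 fold change, serum-free over serum, for each gene: gray squares and bars are the estimate and 95% interval without the block, black those with the line as a block, and colored points the 4 ratios within lines. The intervals of *TEAD1*, *TEAD4* and *LATS2* lie below 0 in both fits, those of *CCN1*, *ANKRD1* and *AJUBA* only with the block, and WT4 (red triangles) has the lowest ratio for *TEAD4* and for all 6 targets.

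Levels by line were compared with the condition as a term in the fit. Of the 10 genes, 7 differed between the lines past the threshold, where 22.9% of all tested genes did, and these 7 were *TEAD4* and all 6 targets. WT4 had the lowest level of each of the 7. The range over lines, averaged over the conditions, was largest for *ANKRD1*, where WT2 was 18.3-fold above WT4 (adjusted p = 4.25e-07). *CCN1* spanned 3.31-fold (adjusted p = 0.0108), *CCN2* 2.74-fold (0.0124), *AJUBA* 2.52-fold (0.0437, and 0.0505 under RLE scaling, where its call was lost) and *AMOTL2* 1.97-fold (0.0101). *LATS2* spanned 1.53-fold (0.00164) and *TEAD4* 1.45-fold (0.017). The other 3 genes spanned at most 1.15-fold and did not pass, with adjusted p of 0.222 for *YAP1*, 0.185 for *WWTR1* and 0.733 for *TEAD1*.

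Without WT4, 8 of the 10 genes differed among the remaining lines, where 18.6% of all tested genes did. *ANKRD1*, *CCN1*, *CCN2*, *AMOTL2*, *AJUBA* and *LATS2* still passed (adjusted p of at most 0.0251), *TEAD4* no longer did (0.397), and *YAP1* (0.0147) and *WWTR1* (0.0266) did. *ANKRD1* differed most, with WT3 at 2.23 and 0.920 CPM in the 2 conditions against at least 7.88 CPM in WT1 and WT2. With only 1 library per line and condition, what else sets the lines apart was not tested.

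**Figure D4:**
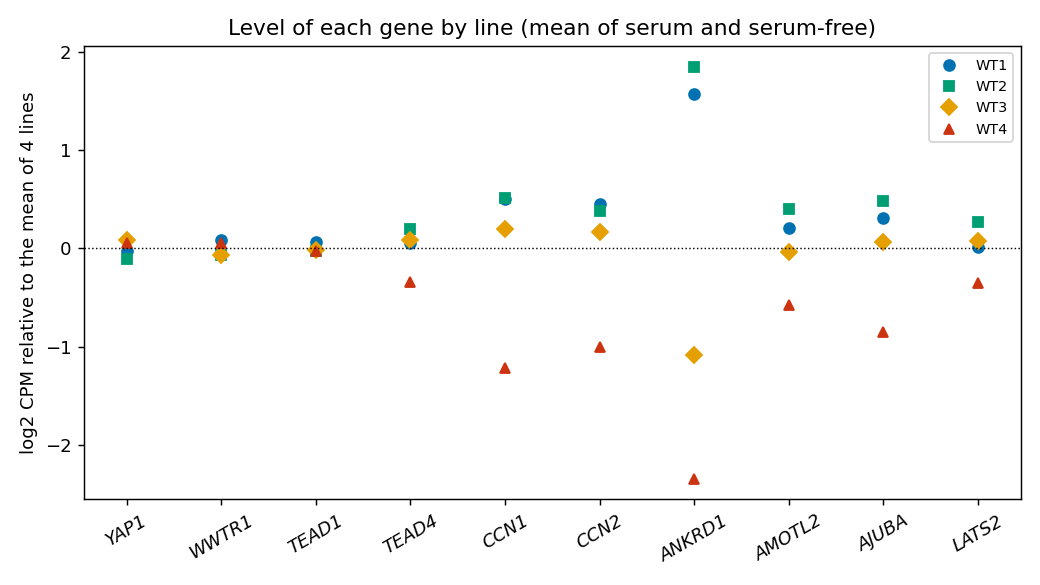
Level of each gene in each line (log2 CPM averaged over serum and serum-free, relative to the mean of 4 lines). *YAP1*, *WWTR1* and *TEAD1* cluster at 0, while the targets spread with WT4 at the bottom, *ANKRD1* most, where WT3 is also low.

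The other genes of the pathway were examined from lists. Of 6 core kinase cassette genes, 3 fell and 0 rose without the block, where 14.0% of all tested genes fell, and 5 fell with it, where 22.4% did. *MOB1A*, a LATS activator, fell by 0.33 on the log2 scale (adjusted p = 0.0167), *LATS1* fell by 0.32 (0.0193) and *STK4*, an upstream kinase of LATS, fell by 0.21 (0.0357). *STK3*, its paralog, had a larger estimate of −0.73 that passed with the block (adjusted p = 3.19e-06) but not in the fit without it (0.0569). *STK3* was called lower in 11 of 25 alternative fits, which included fits without the block. *MOB1B* also passed with the block (−0.23, adjusted p = 0.0277) but not in the fit without it. *SAV1*, the scaffold of these kinases, did not pass (0.14, adjusted p = 0.772). The direction of *MOB1B* turned under the GC correction with the block (0.02), and that of *SAV1* without the serum library of WT4 (−0.03). With the block and the GC correction, 3 of the 6 were called lower, where 24.5% of all tested genes were, and *SAV1* was called higher (0.21, adjusted p = 0.0392). The estimates then shrank to −0.13 for *MOB1A* and −0.16 for *LATS1*, which still passed, and to −0.09 for *STK4*, which did not (adjusted p = 0.0601). Without the serum libraries of WT1 and WT2, 0 of the 6 passed, with adjusted p of 0.109 for *MOB1A*, 0.177 for *LATS1* and 0.25 for *STK4*.

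Of the 5 other TEAD family and VGLL cofactor genes tested, 0 passed in either direction in the main fit, which has no block. With the block, 3 were called higher, where 23.2% of all tested genes were. *TEAD2* averaged 6.12 CPM with serum and 9.66 CPM without it, a log2 difference of 0.65 with the block (adjusted p = 0.0594 without the block). *TEAD3* averaged 10.9 and 13.3 CPM (0.29 with the block, adjusted p = 0.0242), and its call was lost when the GC correction was added (0.08, adjusted p = 0.511), whereas *TEAD2* was still called higher (0.47, adjusted p = 0.00151). *VGLL2* was called higher with the block (1.14, adjusted p = 0.0176) on the counts of WT1 (31 with serum and 70 without) and WT2 (65 and 175), since WT3 held 1 and 3 counts and WT4 held 0 in both conditions, and *VGLL1* was not tested for lack of counts. Without the serum libraries of WT1 and WT2, the unblocked estimates were 0.39 for *TEAD2* (adjusted p = 0.37), 0.28 for *TEAD3* (0.503) and 5.95 for *VGLL2* (0.285).

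Among 18 upstream regulators, 2 rose and 2 fell without the block, and 6 rose and 6 fell with it (23.2% and 22.4% of all genes). *DCHS1*, a protocadherin ligand, rose from a mean of 2.699 to 5.35 CPM (log2 fold change 0.99, adjusted p = 0.0359), and *AMOTL1*, an angiomotin like *AMOTL2*, rose from 398 to 507 CPM (0.35, adjusted p = 0.0444). *FAT1*, an atypical cadherin, fell by 0.35 (0.0264) and *RASSF1*, whose product binds the cascade kinases, fell by 0.51 (0.00859). With the block, the estimate of *RASSF1* was −0.50, and −0.79 with the GC correction added.

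Of 16 further genes commonly listed as YAP or TAZ targets, 1 rose and 2 fell without the block, and 3 rose and 8 fell with it, where 23.2% of all tested genes rose and 22.4% fell. *GADD45A*, a stress response gene, fell by 0.38 (adjusted p = 0.0231) and *FJX1* fell by 0.54 (0.0398), while *ARHGEF17* rose by 0.48 (0.0278). With the block, adding the GC correction moved *ARHGEF17* from 0.48 to 0.23 and *FJX1* from −0.56 to −0.84, and both still passed. *NUAK2*, a kinase gene, averaged 11.4 and 6.67 CPM and passed with the block but not in the main fit without it (adjusted p = 0.0511). *NUAK2* was called lower in 12 alternative fits, which included fits without the block. The median log2 fold change of this list was −0.23, and 13 of the 16 genes differed between lines, a share to set beside the 22.9% of all genes. The counts called between conditions in these 2 lists without the block are near the shares of all genes (11.1% higher and 14.0% lower). Without the serum libraries of WT1 and WT2, only *RASSF1* of the named genes of these lists passed (−0.60, adjusted p = 0.0366), while the others had adjusted p of 0.112 to 0.344. Their estimates were then 0.63 for *DCHS1*, 0.24 for *AMOTL1*, −0.24 for *FAT1* and −0.34 for *GADD45A*. They were −0.53 for *FJX1*, 0.45 for *ARHGEF17* and −0.45 for *NUAK2*.

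**Figure D5:**
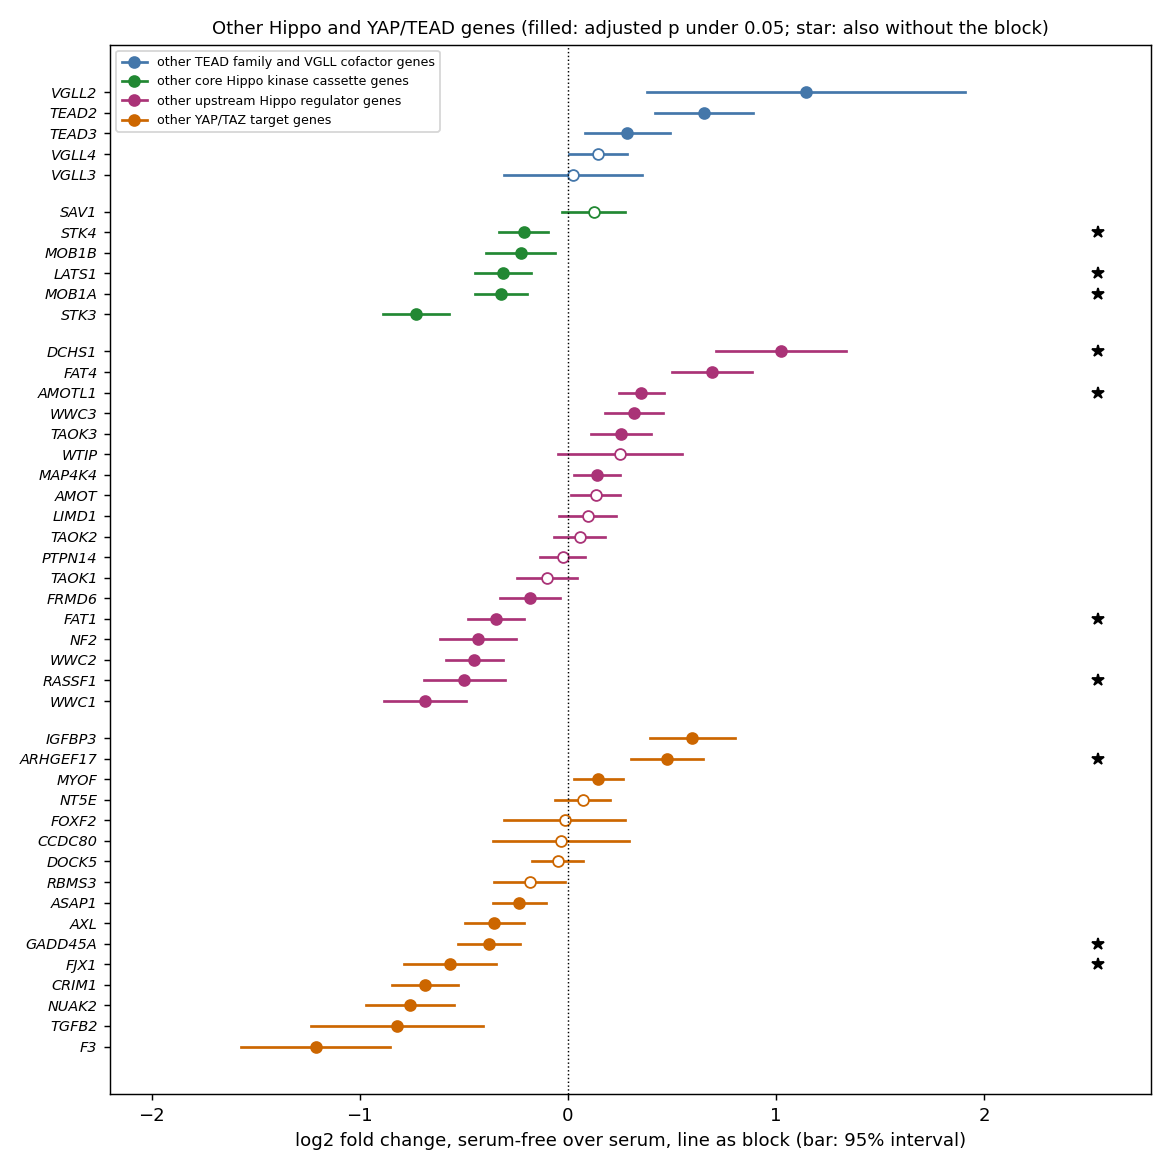
Log2 fold change, serum-free over serum, with the line as a block and its 95% interval, for the other Hippo and YAP/TEAD genes in 4 lists (colors). Filled points passed with the block and stars mark genes that also passed without it: the core kinase cassette genes lie below 0 except *SAV1*, the TEAD and VGLL genes above 0, and the upstream regulators and targets on both sides.

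*CCN1*, *CCN2* and *ANKRD1* are also listed among the targets of serum response factor (SRF) and its MRTF cofactors in some collections, and the SRF and actin genes were therefore set beside them. Of 17 tested, 2 rose and 5 fell without the block, and 5 rose and 7 fell with it. Of all tested genes, 11.1% rose and 14.0% fell without the block, and 23.2% rose and 22.4% fell with it. *ACTG1* and *ACTB*, the cytoplasmic actins, fell by 0.68 (adjusted p = 8.3e-04) and 0.58 (0.00209), and *FHL2*, a LIM protein gene, fell by 0.47 (0.0037), while *TGFB1I1*, a focal adhesion gene, rose by 0.58 (0.00193). These 4 still passed without the serum libraries of WT1 and WT2 (adjusted p of at most 0.0454), and adding the GC correction to the block moved *TGFB1I1* from 0.58 to 0.38. Whether the target genes above followed either factor was not tested.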

How the data were processed

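RNA was depleted of ribosomal RNA and sequenced on an Illumina HiSeq in paired ends. The values the authors deposited are HTSeq counts of reads on each gene of GRCh38, whole numbers with no normalization (the submitters' processing notes also name cutadapt and TopHat2 2.0.11). The annotation release and strand setting are not given in the sources used here. After a filterByExpr filter and TMM scaling, serum-free was tested against serum with edgeR 4.0.16 in R 4.3.3 (robust quasi-likelihood test, Benjamini-Hochberg adjustment over 17671 genes, threshold 0.05), after a test on simulated data. Lines were compared by the edgeR F test with condition as a term. The line numbers pair the libraries because a number marks the same cell line: deviations from the group means correlated at 0.403 to 0.605 within lines and at most 0.126 between lines. Of the fits between conditions, only those with the line as a block use this pairing. The fit with the block is given beside the calls it changes. P-values without the block measure the spread between these cloned lines, and those with it the spread of the change within lines. Those of the line test are set against what is left after line and condition. RPKM used merged exon lengths, and the correction for GC content used transcripts, both from GENCODE models lifted to the GRCh37 build, not that of the counts. Gene symbols matched 55604 of 58051 identifiers.

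The 10 genes and the lists were chosen with earlier results of these data known. Named were all 10 genes, every TEAD and core kinase gene, the 4 genes of each other list with the smallest p among those past the threshold with or without the block, and, for *CCN1*, *CCN2* and *ANKRD1*, the 3 protein-coding genes (mean of at least 100 counts) with the closest profiles. Alternatives were the block, DESeq2 1.42.0, limma 3.58.1 (voom), RLE and upper-quartile scaling, other filters on low counts, the GC correction with the block, and leaving out libraries or lines. Leaving out the serum libraries of WT1 and WT2, and each line under the block, was chosen after seeing the data.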

Additional observations from a re-analysis of the deposited data

Results flagged for a closer look

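The log2 ratio of *TEAD4*, serum-free over serum, was −0.85 in WT4 and −0.43 to −0.38 in the other 3 lines. The gap between WT4 and the nearest other line was 0.902 of the whole range, more than Dixon's critical value for 4 values at the 95% level. In all, 30 sets of 4 values were searched in this way, and chance marks about 1 in 20 such sets. The cause was not tested.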

How the results depend on the processing

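The number of the 10 genes called lower, 2 in the fit without a block, was 6 with the line as a replicate block, 5 with the block and the GC correction, and 1 under upper-quartile scaling and without the serum libraries of WT1 and WT2. It was 1 to 4 when libraries or lines were left out, and 4, 8, 4 and 6 when WT1, WT2, WT3 or WT4 was left out under the block. The number called higher was 0 except under the GC correction with the block (2). For the other pathway genes (5, 6, 18 and 16 tested in the 4 lists), the number called higher was 3, against 12 with the replicate block, 13 with the block and GC correction, 6 under upper-quartile scaling, 5 with at least 10 counts in every library, and 0 without the 2 serum libraries. It was 0 to 4 with libraries or lines left out, and 8, 8, 9 and 13 with WT1 to WT4 left out in turn under the block. The number called lower was 7, against 19 with the block, 17 with the block and GC correction, 11 with DESeq2, 4 under upper-quartile scaling and 1 without the 2 serum libraries. It was 0 to 15 with libraries or lines left out, and 17, 18, 17 and 21 under the block. The calls over all genes moved too: with libraries or lines left out, 620 to 2849 genes were called higher and 969 to 3279 lower, and under the block 2979 to 4479 higher and 3078 to 4459 lower. Of all genes, 4434 were called without and 8067 with the block. The calls over all genes were 44.1% higher, and 57.6% under upper-quartile scaling. The number of the 10 genes differing between lines was 7, 6 under RLE scaling and 1 when the condition was not a term, and 7 to 8 with a line left out. Directions turned, with no value past the threshold, without the 2 serum libraries for *YAP1* (−0.0018), *CCN2* (0.082), *ANKRD1* (1.62) and *AMOTL2* (0.015), for *YAP1* without WT4 under the block (−0.0087), and for *MOB1B* with the block and GC correction (0.020). With libraries or lines left out, estimates ran from −0.012 to 0.114 for *YAP1*, −0.365 to 0.098 for *CCN2*, −1.07 to 0.092 for *ANKRD1*, −0.359 to 0.023 for *AMOTL2* and −0.033 to 0.359 for *SAV1*. Of 25 alternatives, the call was lost in 10 for *TEAD4*, 14 for *STK4*, 12 for *FJX1*, 11 each for *FAT1* and *AMOTL1*, 9 each for *DCHS1* and *GADD45A*, 8 for *ARHGEF17*, 7 for *LATS1*, 6 for *MOB1A* and 2 for *RASSF1*, and in 0 for *TEAD1*, *ACTB*, *ACTG1*, *FHL2* and *TGFB1I1*. Of the same alternatives, a call was gained in 12 each for *TEAD2* and *NUAK2*, 11 for *STK3*, 8 for *LATS2* and 7 for *CCN1*. It was gained in 1 to 4 for the other named genes that gained one. Fits without the 2 serum libraries compare WT3 and WT4 with serum to all the lines without it, so differences between lines enter their estimates. The causes of the changes above were not tested.

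Counts limit *ANKRD1* in WT3 and WT4, where 18 to 95 reads lay behind each value. The annotation of GC content and length is of another build, GC content was known for 98.6% of tested genes, and the log2 fold change under the block rose with GC content across genes (Spearman's rho 0.358, a description, since genes are not independent replicates).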

Other observations

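The profiles most like those of *CCN1*, *CCN2* and *ANKRD1*, the 3 targets with the widest fold range over lines, across the 8 libraries were found by the root mean square difference of centered log2 CPM among 11532 genes. For *CCN1* they were *EPHB1* (0.174), *AJAP1* (0.205) and *THBS1* (0.209), where *CCN1* itself ranged over 2.998. *THBS1*, which encodes the matrix protein thrombospondin 1, averaged 6484 CPM with serum and 3882 CPM without it. For *CCN2* they were *PDLIM1* (0.163), *CAV1* (0.173) and *FLI1* (0.185), over a range of 1.95. For *ANKRD1* the nearest profiles were farther off, *ADAMTSL1* (0.433), *ITGB2* (0.685) and *MARCHF4* (0.699), over a range of 4.99. When each line was centered on its own mean, 0 of the 3 nearest genes were the same for any of these targets.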
